A study of Poecilia mexicana x Poecilia latipinna and Poecilia formosa with 28 samples.

Results

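The 200 genes described here had more reads in the clonal Amazon molly, Poecilia formosa, than in laboratory F1 hybrids in at least 2 of 3 organs, out of 31997 genes in the count table. They were selected on read counts scaled to the library total (counts per 1000000 reads, CPM). A gene counted in an organ when its lowest P. formosa fish lay above its highest hybrid fish, its P. formosa mean was at least 1 CPM, and the ratio of the genotype means, with 0.1 CPM added to each, was at least 4. The rule was met in 2 or 3 organs by 202 genes, 0.719% of the 28109 genes with any count, and the 200 with the largest second-highest ratio of the 3 organs were kept. Because these values chose the genes, the genotype differences below are a description and carry no test.

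The Amazon molly is an all-female fish that arose from a cross between P. mexicana and P. latipinna. It reproduces by gynogenesis, in which sperm of a related species triggers development of the egg without passing on genes, so that daughters are genetic copies of their mother. An F1 hybrid of the same parental species carries freshly combined genomes, while the clone has kept its own combination without recombination.

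The clone was a single laboratory lineage with 4 fish (3, 4, 11 and 12), and the hybrids were 6 fish (4, 10, 11, 12, 13 and 14) of 1 brood, with P. mexicana on the mother's side and P. latipinna on the father's. All were females of 3 months, untreated and kept alike. Equal fish numbers in the 2 genotypes are different animals. Brain and liver were measured in 4 and 6 fish and ovary in 4 and 4, with no ovary library analysed here for hybrids 11 and 14. Each kind of fish was represented by 1 clone or 1 brood. The spread between fish within that clone or brood is therefore the only error in these data. Neither parental species was measured.

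Library totals lay between 32460110 and 46316691 counts, so that 1 CPM was 32.5 to 46.3 reads. The table gives genes by numeric ID without names, so no function, pathway or cell type can be given, and at most 2 IDs are printed for each group of genes. As a check of the organ labels, genes were taken that reached 5 CPM in an organ of the hybrids and at least 20 times either other hybrid organ. The 1638 genes of this kind for brain summed to 154488 to 250076 CPM in the clone's brains and to at most 4736 CPM in its livers and ovaries. The 370 genes for liver summed to 519475 to 556953 CPM in the clone's livers and to at most 6643 CPM elsewhere. For ovary, 1022 genes summed to 181813 to 198839 CPM in the clone's ovaries and to at most 5403 CPM elsewhere (all sums leave out the 200 genes). Of all 10 brains, P. formosa brain 11 held the lowest sum of brain genes, and brain 4 the next lowest at 220736 CPM. The other brains had 246027 to 265259 CPM. In brains 3, 4, 11 and 12 of the clone, ovary genes summed to 2296, 3223, 5403 and 2697 CPM. Hybrid brains had 1902 to 2117 CPM. In liver, ovary genes summed to 1395 to 2466 CPM in the clone and 794 to 1196 CPM in hybrids. Brain genes there summed to 1068 to 1893 CPM against 523 to 938 CPM. The sets were chosen for low levels in the other hybrid organs, so the choice favours low sums in hybrids.

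Most of the 200 genes met the rule in brain and liver and not in ovary. This held for 144 genes (72.0%), while 22 met it in liver and ovary, 10 in brain and ovary, and 24 in all 3 organs. In brain the rule was met by 178 of the 200 genes, in liver by 190 and in ovary by 56. Over all genes with a count in the organ it was met by 1.16% in brain, 4.52% in liver and 1.08% in ovary. With the genotypes exchanged, 25 genes were higher in the hybrids in 2 or 3 organs (0.0889% of genes with a count), and the shares by organ were 0.214% in brain, 0.846% in liver and 0.979% in ovary.

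The excess over the hybrids was usually several-fold and in some genes over 100-fold. Where the rule was met, the median ratio was 9.03 in brain, 10.8 in liver and 8.37 in ovary, and the highest ratios were 864, 383 and 172. A ratio of 8 or more was reached by 97 genes in brain, 129 in liver and 31 in ovary. The values nearest the limits were close together. The last gene kept had a second-highest ratio of 4.046, and the 2 left out by the limit had 4.03 and 4.01. The nearest genes left out by the ratio itself stood at 3.99 in their second organ. In bulk tissue, fewer cells of a type and less RNA per cell cannot be told apart.

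Over all 200 genes, the median level in each library separated the genotypes without overlap in brain, liver and ovary. In brain it was 2.99, 8.15, 15.5 and 2.93 CPM in P. formosa 3, 4, 11 and 12, against 0.547 to 0.840 CPM in the 6 hybrids. Brains 4 and 11 stood far above brains 3 and 12. In liver it was 3.12, 2.67, 6.63 and 5.08 CPM in the same order, against 0.135 to 0.283 CPM in the hybrids. In ovary it was 1.68, 2.09, 2.33 and 2.00 CPM, against 0.663, 0.588, 0.812 and 1.10 CPM in hybrids 4, 10, 12 and 13. The ovaries of the clone thus differed little among themselves. The gap to the hybrids was narrowest in ovary, where 56 of the 200 genes met the rule, against 178 in brain and 190 in liver. The size of the gap in each organ was therefore largely set by the choice of genes.

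**Figure D1:**
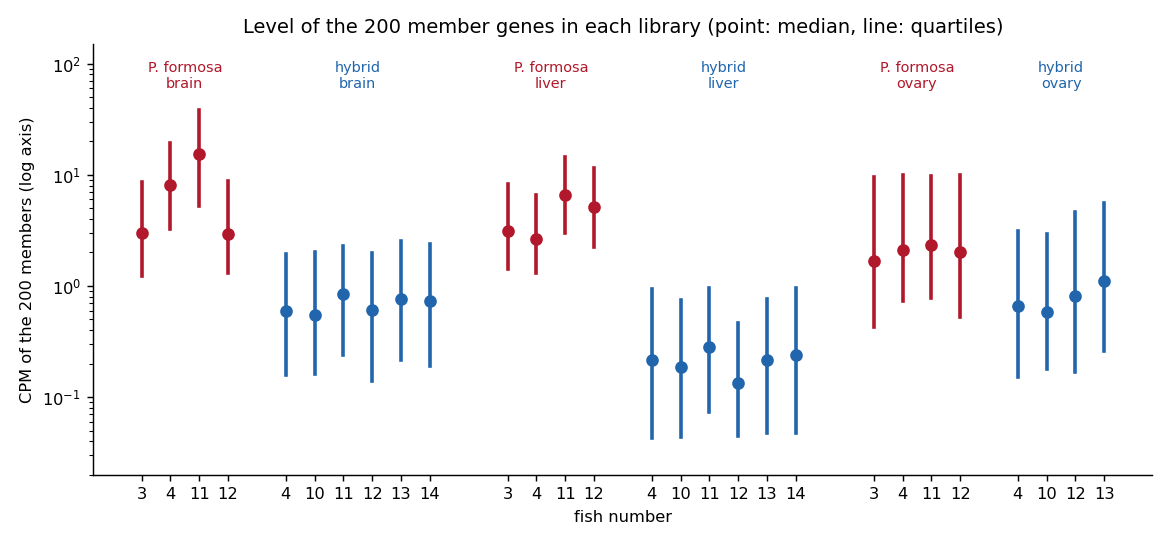
CPM of the 200 genes in each of the 28 libraries on a log axis, with P. formosa in red and hybrids in blue; points are medians over genes and lines run from the lower to the upper quartile. The median in P. formosa brains 4 and 11 was 8.15 and 15.5 CPM, against 2.99 and 2.93 CPM in brains 3 and 12.

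In each hybrid organ taken alone, most of the genes averaged under 1 CPM, but only 2 had no count in any hybrid library. Of the 200 genes, 155 averaged under 1 CPM in hybrid liver, 116 in hybrid brain and 106 in hybrid ovary, and 79 stayed under 1 CPM in each hybrid organ. In contrast, 65 genes averaged at least 5 CPM in some hybrid organ. The rule favours low hybrid values in the organs where it was met, and the shares of all genes at these levels were not counted. By CPM with plain totals, the highest organ in the clone was the brain for 128 genes, the liver for 29 and the ovary for 43, and in the hybrids these numbers were 95, 18 and 87. The order of brain and liver depends on the scaling: in the clone, 160 of the 200 genes had a higher fitted level in brain than in liver with plain totals, and 33 with TMM factors, which set the bulk of genes equal between organs. With plain totals, both genotypes had their highest level in the same organ for 117 genes, and 50 genes were highest in brain in the clone and in ovary in the hybrids.

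**Figure D2:**
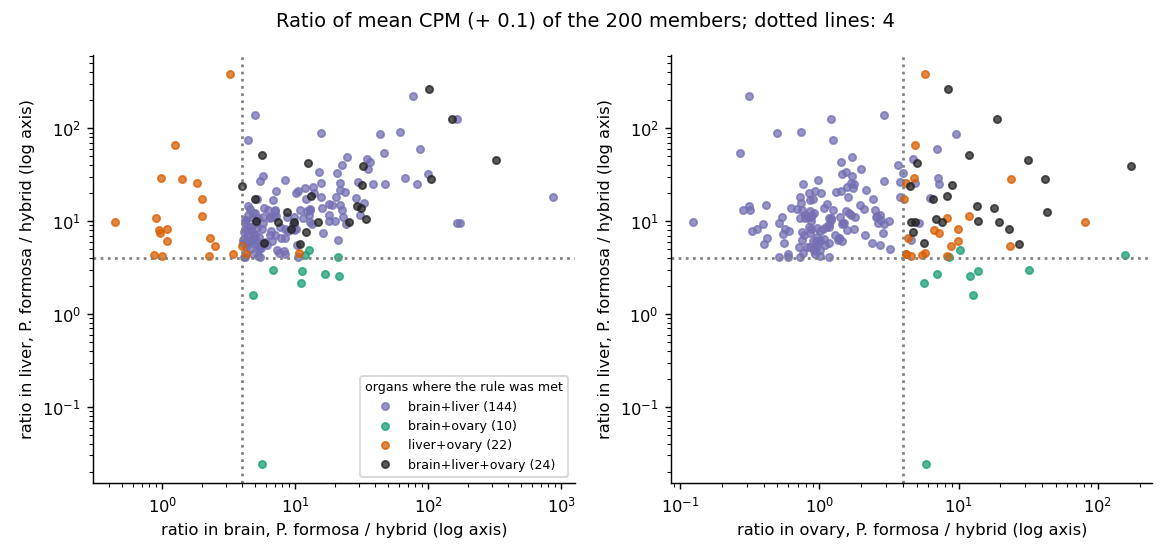
Ratio of mean CPM, P. formosa over hybrid with 0.1 added to each, for the 200 genes on log axes, with liver against brain on the left and liver against ovary on the right; colours give the organs in which the rule was met and dotted lines mark 4. The 144 genes of brain and liver scatter around a median ratio of 1.11 in ovary, where they missed the rule by definition.

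The 24 genes higher in the clone in all 3 organs had median ratios of 12.8 in brain, 14.1 in liver and 10.5 in ovary. Their median levels were 7.30, 3.81 and 5.12 CPM in brain, liver and ovary of the clone and 0.220, 0.0599 and 0.232 CPM in the hybrids. The 2 genes with the largest lowest ratio were 103142986 and 103132697.

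Gene 103142986 had no count in any of the 16 hybrid libraries. In P. formosa 3, 4, 11 and 12 it stood at 1.20, 4.58, 5.25 and 1.48 CPM in brain, at 2.14, 3.87, 4.65 and 4.55 CPM in liver and at 16.4, 17.4, 18.3 and 16.5 CPM in ovary. The ovary values were nearly equal, while brains 3 and 12 were several times below brains 4 and 11. Taking 3 counts over all hybrid libraries of an organ as the limit that a count of 0 allows, its mean was at least 224-fold higher in brain, 331-fold in liver and 993-fold in ovary, a bound that covers counting error only.

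Gene 103132697 was steady among the clone's fish and close to 0 in the hybrids. Its brain levels were 35.8, 30.2, 35.1 and 34.5 CPM in P. formosa 3, 4, 11 and 12 (mean 33.9 ± 2.56, SD, n = 4), and the 6 hybrid brains had 0.0265 CPM in fish 4 and 0 in the others. In liver the clone had 6.27, 4.63, 6.47 and 4.72 CPM and the hybrids 0 to 0.0986 CPM. The ovary values were 4.63, 5.23, 3.85 and 3.68 CPM against 0.0222 to 0.0652 CPM. Within the clone it was higher in brain than in ovary by 2.71 on the log2 scale (SE 0.15, edgeR quasi-likelihood test, adjusted p = 2.48e-07), and higher in all 4 fish. With the fish as a block, the difference was 2.72 (SE 0.17, edgeR quasi-likelihood test, adjusted p = 3.67e-05). The clone's brain and ovary values also helped to choose this gene, so both p-values are a description.

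Another gene without a count in any hybrid library was 103154613, which met the rule in brain and liver. Its clone levels were 5.25, 10.0, 15.0 and 3.89 CPM in brain and 4.87, 5.12, 7.77 and 5.86 CPM in liver. In ovary it was at 0.326, 1.05, 0.441 and 0.602 CPM, above 0 in each fish but under 1 CPM on average. The bounds against 3 counts in the hybrids were at least 614-fold higher in brain and 514-fold in liver.

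The most abundant of the 200 genes was a liver gene. Gene 103153703 stood at 8526, 13250.1, 8946 and 13205 CPM in livers 3, 4, 11 and 12 of the clone, and at 63.2, 41.4, 11.3, 10.0, 93.0 and 27.0 CPM in livers 4, 10, 11, 12, 13 and 14 of the hybrids. No liver of one genotype came near the other. It met the rule in the other organs too, at far lower levels, with 4.27, 65.6, 6.55 and 21.9 CPM in the clone's brains against 0 to 0.424 CPM in hybrid brains, and 0.973 to 2.77 CPM against 0.0482 to 0.177 CPM in ovary. The order of the clone's brains, with fish 4 highest and fish 12 second, was not that of most other members. The summed liver genes were also highest in P. formosa brain 4, at 6643 CPM, against 2247, 5260.02 and 3001 CPM in P. formosa brains 3, 11 and 12 and 2392 to 3156 CPM in hybrid brains. The part of liver RNA in these brain values was not tested.

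Gene 103143314, the next in abundance, met the rule in liver and ovary. Its liver levels were 5465, 6246, 5783 and 6135 CPM in the clone. The hybrid livers were at 1832, 1858, 509.7, 336, 423 and 2757 CPM in fish order, a wide spread that stayed below the clone. In ovary it was at 4.63 to 6.23 CPM against 0.696 to 1.24 CPM. In brain the ratio was 10.7, but the lowest clone value of 2.88 CPM lay below the highest hybrid value of 3.84 CPM.

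The 144 genes of brain and liver were the bulk of the group and had similar median levels of both genotypes in ovary. These genes missed the rule in ovary by definition. Similar levels there were thus favoured by the grouping and are a description. Their median levels were 8.48 CPM in clone brain and 5.04 CPM in clone liver against 0.739 and 0.267 CPM in the hybrids. In ovary the medians were 1.06 CPM in the clone and 1.02 CPM in the hybrids, with a median ratio of 1.11. The hybrid mean in ovary was the higher one for 63 of the 144 genes. In 70 genes the clone's ovary mean was under 1 CPM, and in the other 74 the ratio was under 4. Of all 144 genes, 36 had their 4 clone ovaries above the 4 hybrid ovaries, and 19 of these had a clone ovary mean of at least 1 CPM. The share of all genes with such a split in ovary was not counted, so these counts show nothing particular to the 144 genes.

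Gene 103144069 showed this pattern with high levels. In brain it was at 2.99, 227, 472 and 5.23 CPM in P. formosa 3, 4, 11 and 12 (mean 177 ± 223, SD, n = 4) and at 0.583 to 1.24 CPM in the hybrids. In liver the clone stood at 73.9, 21.0, 228 and 116 CPM and the hybrids at 0.197 to 3.08 CPM. The ovaries of the genotypes overlapped, with 32.9 to 41.3 CPM in the clone and 25.4 to 38.1 CPM in the hybrids. The lowest clone brain was far below the highest, and still above each hybrid brain.

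Gene 103133028 went further, with more reads in hybrid than in clone ovary. Its brain levels were 2.75, 104, 241 and 2.44 CPM in the clone against 0.636 to 1.36 CPM, and its liver levels were 1.43, 2.46, 85.6 and 54.6 CPM against 0 to 0.168 CPM. In ovary the clone had 5.80 to 11.2 CPM and the hybrids 10.0, 9.53, 37.5 and 48.1 CPM in fish 4, 10, 12 and 13.

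**Figure D3:**
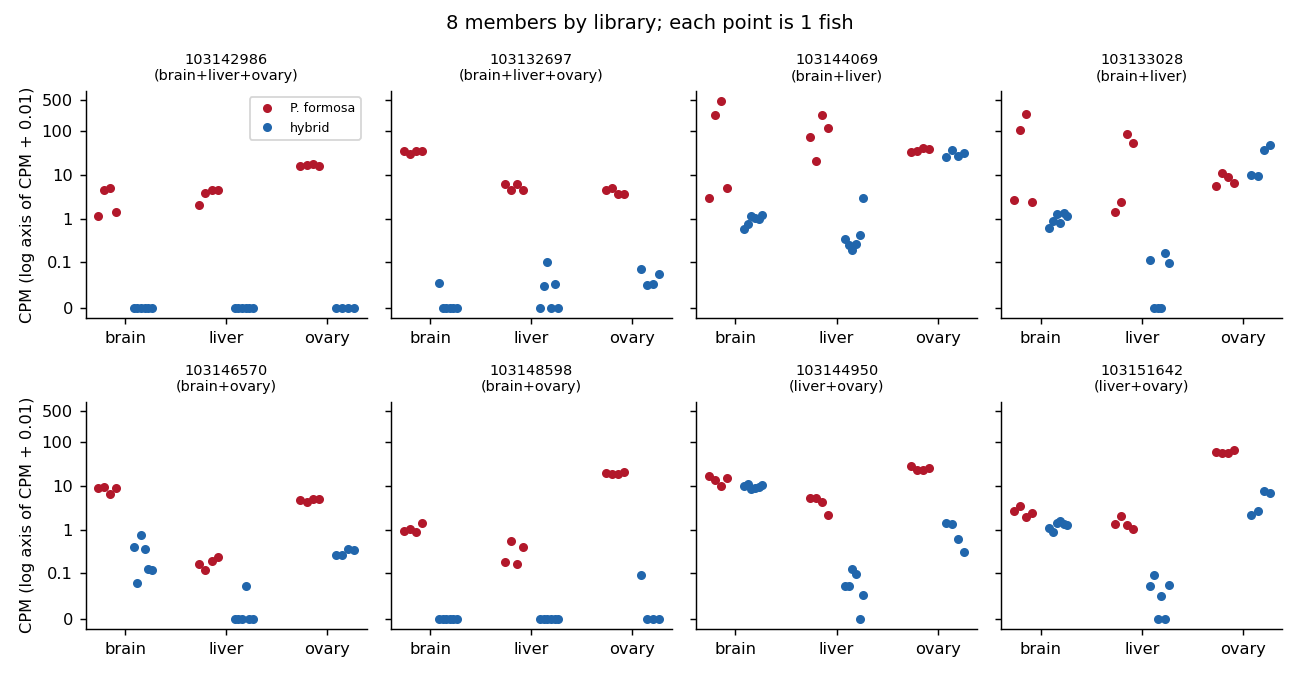
CPM per fish in brain, liver and ovary for 8 of the genes, on a log axis of CPM plus 0.01, with P. formosa in red and hybrids in blue; each point is 1 library. The 2 genes of brain and liver have clone brains from 2.44 to 472 CPM, while 103132697 keeps its 4 clone brains between 30.2 and 35.8 CPM.

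The 10 genes of brain and ovary had median ratios of 11.5 in brain and 11.2 in ovary. They missed the rule in liver by definition, and most were scarce there, with a median of 0.385 CPM in the clone. In 1 of them the hybrids had the higher liver mean, with a ratio of 0.0245. Gene 103146570 stood at 8.78, 9.44, 6.58 and 9.15 CPM in clone brain against 0.0533 to 0.771 CPM in hybrid brain. In ovary its values were 4.82, 4.32, 4.96 and 5.07 CPM against 0.261 to 0.364 CPM. Its liver values were under 1 CPM in both genotypes, 0.116 to 0.237 CPM in the clone and 0 to 0.0451 CPM in the hybrids. The clone's fish were close to each other in each organ.

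Gene 103148598 was mainly an ovary gene in the clone. It stood at 19.1, 18.5, 18.7 and 20.3 CPM in clone ovary, against 0.0870 CPM in hybrid ovary 4 and 0 in ovaries 10, 12 and 13. In brain the clone had 0.925, 1.07, 0.897 and 1.45 CPM and no hybrid brain had a count. Within the clone its level was lower in brain than in ovary in 4 of 4 fish (edgeR quasi-likelihood test, log2 difference -4.40, SE 0.16, adjusted p = 3.09e-08). With the fish as a block, the difference was -4.41 (SE 0.17, edgeR quasi-likelihood test, adjusted p = 9.16e-06). These clone values also helped to choose the gene, so both p-values are a description.

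The 22 genes of liver and ovary had median ratios of 7.74 in liver and 6.24 in ovary, against 1.62 in brain. They missed the rule in brain by definition. Their brain levels were not low, with medians of 11.3 CPM in the clone and 7.17 CPM in the hybrids. Gene 103144950 stood at 5.35, 5.28, 4.35 and 2.21 CPM in clone liver against 0 to 0.123 CPM in hybrid liver, and at 27.7, 23.5, 22.7 and 25.4 CPM in clone ovary against 1.48, 1.37, 0.606 and 0.313 CPM in hybrid ovary. In brain the genotypes overlapped, with 9.87 to 16.8 CPM in the clone and 8.51 to 10.8 CPM in the hybrids.

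Gene 103151642 was highest in ovary in both genotypes. Its ovary levels were 57.8, 56.2, 56.5 and 66.4 CPM in the clone against 2.15, 2.68, 7.73 and 6.94 CPM in the hybrids. In liver it was at 1.04 to 2.04 CPM against 0 to 0.0871 CPM. The clone's brains, at 2.01 to 3.57 CPM, lay above the hybrid brains, at 0.880 to 1.58 CPM, by a ratio of 2.00, which is under the limit of 4.

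The clone's fish differed strongly from each other in these genes in brain, less in liver and little in ovary. The highest clone fish exceeded the lowest by a median factor of 6.10 in brain over the 178 genes that met the rule there, 2.32 in liver over 190 genes and 1.28 in ovary over 56 genes (0.1 CPM added to each). Over all genes with a clone mean of at least 1 CPM, the same medians were 1.54, 1.59 and 1.20. In brain, 57 of the 178 genes spanned 10-fold or more and 36 spanned less than 2-fold. Among all genes, 3.36% spanned 10-fold or more in clone brain and 77.6% less than 2-fold. In liver, 37.9% of the 190 genes spanned less than 2-fold, against 72.3% of all genes. In ovary, 52 of the 56 genes (92.9%) stayed within 2-fold, against 96.6% of all genes. Small spread in ovary was therefore not particular to the members. The clone values that give this spread also chose the genes. The rule used the mean of the clone's fish, which a single high fish can raise, and all genes were not matched to the members. The part that the selection set was not tested, here or for the order of the fish below.

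The order of the clone's fish was shared by many genes. In brain, fish 11 was the highest for 140 of 178 genes, and fish 11 was highest with fish 4 second for 137. Median deviations from the mean of the 4 fish were -0.84, 0.37, 1.44 and -0.99 on the log2 scale in brains 3, 4, 11 and 12, against 0.01, 0.02, -0.11 and 0.05 over all genes. In liver, fish 11 was highest for 145 of 190 genes, with median deviations of -0.27, -0.46, 0.58 and 0.21 in livers 3, 4, 11 and 12, against 0.04, -0.20, 0.14 and 0.02 over all genes. Liver 11 thus had the highest median over all genes as well, and the share of all genes with fish 11 highest was not counted in either organ. In ovary the median deviations lay between -0.06 and 0.03. Brain and liver did not rank the fish alike: fish 4, with a median above average in brain, was the lowest of the 4 in liver for 107 of the 190 genes.

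**Figure D4:**
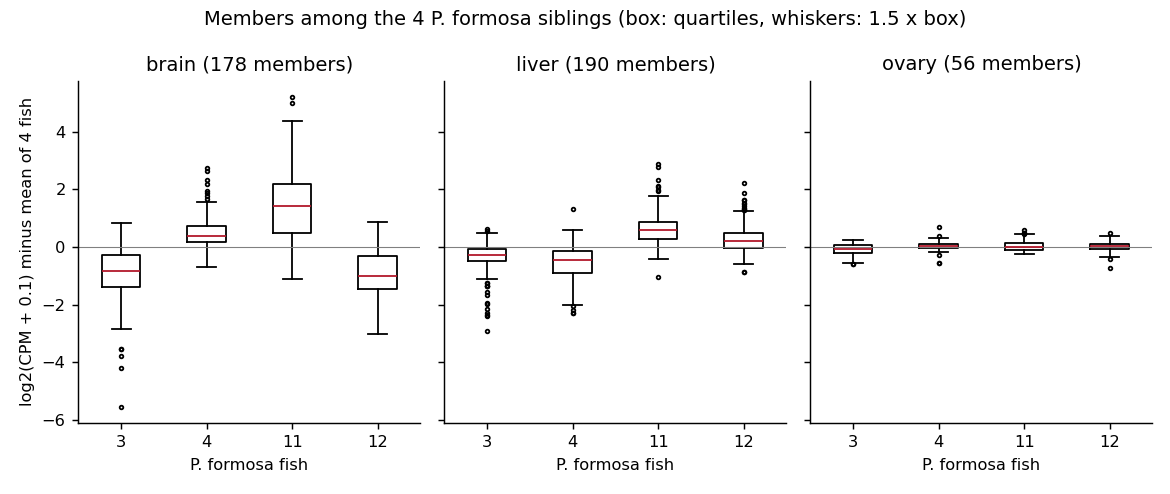
Each fish's log2(CPM + 0.1) minus the average of the 4 P. formosa fish, for the genes that met the rule in brain, liver and ovary; boxes show quartiles over genes, whiskers reach 1.5 box lengths and dots are genes beyond. Brain 11 has a median deviation of 1.44 and brain 12 of -0.99, while ovary medians lie between -0.06 and 0.03.

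Across the 189 members with a clone mean of at least 1 CPM in both brain and liver, the deviations of the 2 organs correlated at 0.62 in fish 11 and 0.39 in fish 3, and at -0.40 in fish 4 and -0.48 in fish 12. Over all 13811 genes at that level the values were 0.41, 0.25, -0.01 and -0.25 in the same order. These are correlations across genes within 1 fish; genes of a library share its depth and make-up, and the 4 deviations of a gene sum to 0.

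Membership in brain rested on P. formosa fish 4 and 11, the libraries that stood apart. Without both, 60 of the 178 genes still met the rule in brain, and the median brain ratio of the 178 was 3.12 in place of 9.03. In liver 181 of 190 and in ovary 53 of 56 still met it. Only the P. formosa mean and the ratio could drop a gene here, since leaving out fish cannot make the genotypes overlap. Of the 200 genes, 84 kept 2 or 3 organs, among them 37 of the 144 genes of brain and liver, 7 of 10 of brain and ovary, 17 of 22 of liver and ovary, and 23 of the 24 genes of all 3 organs. The rule applied anew without both fish was met by 90 genes in place of 202. Without fish 11 alone it was met by 139 genes, of which 137 were members. Of all brains, brain 11 also had the lowest sum of brain genes and brain 4 the next lowest, as given above. Brains 4 and 11 of the clone had higher sums of ovary genes and of liver genes than each other brain. The part of tissue make-up in these brain values was not tested.

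**Figure D5:**
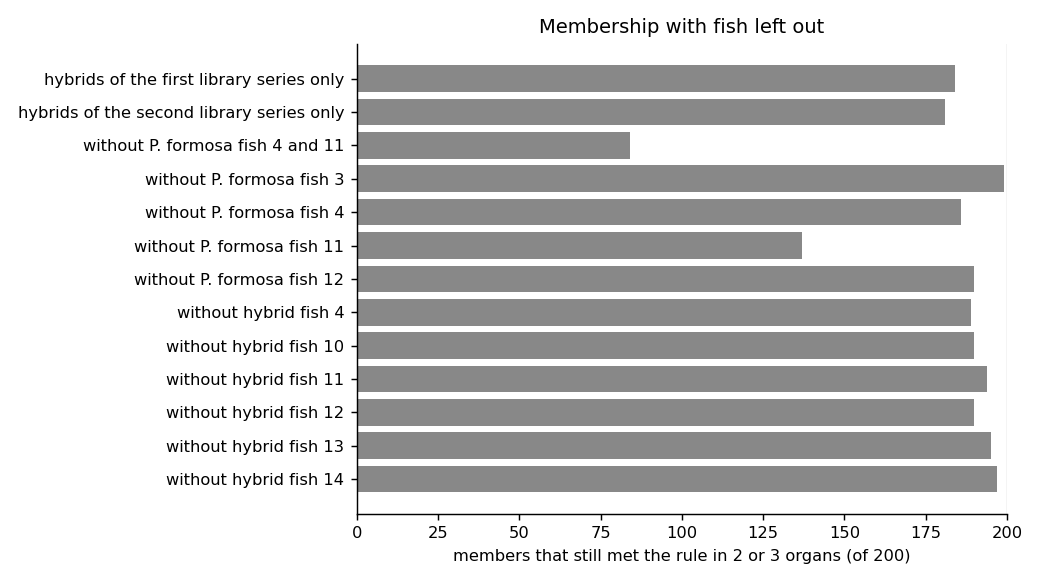
Number of the 200 genes that still met the rule in 2 or 3 organs when fish were left out or hybrids of only 1 library series were used. The bar falls to 84 genes without P. formosa fish 4 and 11 and to 137 without fish 11, and stays at 181 or more for each other setting shown. Leaving out fish could not make the genotypes overlap, so only the P. formosa mean and the ratio could drop a gene.

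Genes were called steady if the clone's highest fish was under 2 times its lowest in each organ where the rule was met. This definition was set after seeing the data and gave a smaller set of 39 genes. Of these, 16 were genes of brain and liver, 5 of brain and ovary, 10 of liver and ovary and 8 of all 3 organs. Their median levels in the clone were 8.49 CPM in brain, 3.35 CPM in liver and 4.79 CPM in ovary, against 0.642, 0.0948 and 0.599 CPM in the hybrids. At the other end, 59 genes spanned at least 10-fold in an organ where the rule was met, and 51 of them were genes of brain and liver. Without fish 4 and 11, the rule was still met in 2 or 3 organs by 36 of the 39 steady genes and 14 of these 59, a contrast that the definition of the classes largely sets. Among these 59 genes the hybrids had their highest level in ovary for 37, with a median of 1.36 CPM in hybrid ovary against 0.537 CPM in hybrid brain and 0.287 CPM in hybrid liver.

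Levels between the clone's organs share the P. formosa values that chose the genes. The rule asked for high clone values in brain for 178 genes, in liver for 190 and in ovary for 56, which favours brain and liver over ovary. The counts of members are therefore a description and support nothing about an organ preference. Of 198 members tested, 115 were higher and 33 lower in brain than in ovary (edgeR quasi-likelihood test, adjusted p under 0.05), with a median log2 difference of 2.09. Of all genes tested, 41.9% were higher and 43.7% lower in brain, with a median of -0.06. With plain totals 119 were higher and 30 lower, against 45.6% and 40.5% of all genes.

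Comparisons with liver depended on the scaling. With TMM factors, 161 of 199 members were higher and 30 lower in liver than in ovary (median log2 difference 3.67), where 37.6% and 47.9% of all genes were higher and lower. With plain totals the members' counts were 117 and 49 (median 1.73), and 16.3% and 73.5% of all genes were higher and lower. Between brain and liver the majority direction changed with the scaling: 15 of 200 members were higher and 89 lower in brain with TMM (40% and 30.1% of all genes), and 45 were higher and 11 lower with plain totals (75.2% and 8.86%). The median of all genes shifted by 1.80 on the log2 scale between these scalings, from 0.17 to 1.97, and that of the members from -1.21 to 0.62. The members' median lay below that of all genes under both scalings. With plain totals, 160 of the 200 members were nonetheless fitted higher in brain than in liver. As above, this is a description and says nothing about an organ preference. Without fish 4 or without fish 12, 59 and 51 members were lower in brain with TMM. The shares of all genes were not counted for these fits. With the fish as a block, the shares of all genes higher and lower were 38.4% and 29.2% for brain against liver, 40.6% and 43.7% for brain against ovary, and 35.6% and 46.5% for liver against ovary.

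By the numbering of libraries, 2 series can be told apart, with all P. formosa fish and hybrids 4 and 10 in the first and hybrids 11 to 14 in the second; the labels do not call them batches. With hybrids of the first series only, 184 of the 200 genes met the rule in 2 or 3 organs, and with hybrids of the second series only, 181. Leaving out hybrids cannot make the genotypes overlap or change the P. formosa mean, so only the ratio could drop a gene. High counts were therefore largely set in advance. Among the hybrids themselves, members were compared between the series. In brain, 1 of 146 members tested was higher and 3 were lower in the second series (0.248% and 0.942% of all genes), and in liver 1 of 112 was higher and 2 were lower (4.6% and 5.64%). In ovary, with 2 fish on each side, 13 of 151 were higher and 2 lower, or 8.61% and 1.32% of the members tested (2.23% and 2.32% of all genes, edgeR quasi-likelihood tests, adjusted p under 0.05). Without hybrid 4, or without hybrid 10, 1 ovary of the first series was left and 0 members were called higher, which does not show that the differences were smaller. Members that failed the filter on low counts in the hybrids, 54 in brain, 88 in liver and 49 in ovary, were not tested.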

How the data were processed

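Gene counts of 28 libraries, raw and not normalized, were deposited by the authors in 1 table. TopHat2 (alignment) and featureCounts (counting) were used per the submitters' processing notes, which state no settings. Build, annotation and strand handling are not given in the sources used here. Overlapping genes and near-identical copies may therefore share reads. Columns were matched to samples by their library names, and 0 columns were unused. The members and lists were chosen with earlier results of these data known. Gene lists and markers by symbol could not be run, since the IDs come without names. In their place, at most 2 IDs per group were printed, by the largest lowest or second-highest ratio, the highest level, or no count in hybrids. The organ gene sets and the classes of steady and variable genes were set after seeing the data.

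CPM used plain library totals. Organ contrasts within P. formosa and series contrasts within hybrids were fitted over all genes with edgeR 4.0.16 in R 4.3.3 (filterByExpr, TMM, robust quasi-likelihood test, Benjamini-Hochberg adjustment at 0.05), with no term for fish. SEs are the log2 difference over the root of the F statistic. Tests were also run on simulated counts in which few genes changed. The organ contrasts called most genes, so the simulation does not check them at that scale. DESeq2 1.42.0, DESeq2 size factors, no filter, each fish left out, a fish block and, added after seeing the data, plain totals were the alternatives. Within a genotype, organs with 1 fish number are from 1 animal and so are paired, and deviations of P. formosa brain and liver from their group means correlated from -0.25 to 0.41 over all genes. The closest libraries of a group, P. formosa ovaries 4 and 12, had a chi-square per degree of freedom of 13.4, so none were duplicates. Each p-value measures variation between fish of 1 clone or 1 brood and no wider variation.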

Additional observations from a re-analysis of the deposited data

Results flagged for a closer look

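In 72 groups of values (11 genes and the median over members, in 6 groups of fish), 7 had a fish far from the others by Dixon's criterion. A rate of 1 in 20 over all 72 would be 3.6, but groups with all values at 0 could not be flagged. The rate also does not hold near 0, where a few reads beside siblings at 0 stand apart. In the clone this was ovary 12 for gene 103151642, at 66.4 CPM. Among hybrids it was liver 14 for gene 103144069, at 3.08 CPM, and ovary 12 for gene 103143314, at 1.24 CPM. The other 4 were single low values beside siblings at or near 0: brain 4 at 0.0265 CPM and liver 11 at 0.0986 CPM for gene 103132697, liver 12 at 0.0451 CPM for gene 103146570, and ovary 4 at 0.0870 CPM for gene 103148598. None of these values reached the other genotype's range. Except for gene 103146570 in liver, the rule itself required this, since each of these genes met it in that organ.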

How the results depend on the processing

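The number of genes meeting the rule in 2 or 3 organs was 202. It was 76 with 1 CPM added in the ratio, 91 with a lowest mean of 5 CPM, 92 with a ratio of 8, 341 with first-series hybrids only, and 90 without P. formosa fish 4 and 11. With 1 fish left out it ran from 139 (P. formosa 11) to 322 (P. formosa 3). With TMM and DESeq2 scaling it was 193 and 180, of which 175 and 163 were members.

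In the organ contrasts, plain totals gave 45 members higher and 11 lower in brain than liver, and 49 lower in liver than ovary. The number lower in brain than liver ran from 51 to 122 with 1 fish left out, where the share of all genes was not counted. With the fish as a replicate block, 16 members were higher and 108 lower in brain than liver, 103 and 37 in brain than ovary, and 153 and 29 in liver than ovary, each within 1.5 times the count without it.

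Counts between hybrid series were small and moved easily. By the DESeq2 test, 5 members were higher in brain, 9 in liver and 26 in ovary, and DESeq2 size factors or no filter gave 2 in liver. The shares of all genes were not counted for these settings or with 1 fish left out. These counts therefore show nothing particular to the members. With 1 fish left out, the higher counts ran from 0 to 2, 0 to 7 and 0 to 12 and the lower from 0 to 4, 0 to 3 and 1 to 2 in brain, liver and ovary; a lone ovary was assumed to vary like the other pair. Over all counts and settings other than leaving out 1 fish, 45 of the recomputed counts stayed within 1.5 times and 13 did not. With 1 fish left out, 39 stayed within 1.5 times and 27 did not. Levels under about 0.1 CPM rest on fewer than 5 reads.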

Other observations

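The excess of genes higher in the clone was carried by brain and liver. For brain, 319 genes met the rule with the clone higher and 59 with the hybrids higher. For liver these numbers were 1164 and 218, and for ovary 298 and 270. Without P. formosa fish 4 and 11, brain had 162 and 62 such genes, liver 1177 and 220, and ovary 305 and 351. In 2 or 3 organs, 90 genes were then higher in the clone and 32 in the hybrids.

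Some members also varied among the hybrid siblings in ovary. Gene 103133028 was at 10.0 and 9.53 CPM in hybrid ovaries 4 and 10 and at 37.5 and 48.1 CPM in ovaries 12 and 13, and it was higher in the second library series by 2.09 on the log2 scale (SE 0.15, edgeR quasi-likelihood test, adjusted p = 0.0155, higher in both fish of that series). Gene 103151642 was also higher in the second series, with 2.15 and 2.68 CPM against 7.73 and 6.94 CPM (log2 difference 1.56, SE 0.22, edgeR adjusted p = 0.0364). The hybrid ovary values of both genes also entered the rule. Gene 103151642 was placed in its group by meeting the rule in ovary, and gene 103133028 by missing it there. Both p-values are therefore a description. The rule did not compare hybrids with each other. Sibling differences and library series cannot be told apart here.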
